A study of Mus musculus with 12 samples.

Results

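Genes of sulfation were followed in cumulus cells, somatic cells of the granulosa lineage that enclose the oocyte in the follicle. The set was chosen by name: the cytosolic sulfotransferases Sult1e1, Sult5a1, Sult1a1 and Sult4a1, the cofactor synthases Papss1 and Papss2, and the steroid sulfatase Sts. Of these 7 genes, 6 were found among the 23997 rows of the deposited table, and Sts was not analysed here. The 7 were proposed with earlier results of these data in view, so the levels of each member in every group served in its choice and are given as a description. Cells came from C57BL/6J females of 3 or 6 months that were wild type (WT) or ClpP-/- (KO), Clpp encoding the proteolytic subunit of a protease in mitochondria. The 4 combinations of genotype and age had 3 libraries each, and every library held 100 cells of 1 mouse. All mice, WT included, were given 5 IU of PMSG, a gonadotropin that drives follicle growth, and the labels put collection at 44 h in one text and at 48 h in another. The labels do not say how the ClpP-/- allele was made, and they carry a passage entry, P1.

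Sulfotransferases move a sulfate group from the donor 3'-phosphoadenosine 5'-phosphosulfate (PAPS) onto an acceptor. Sult1e1 encodes the estrogen sulfotransferase, which sulfates estradiol and estrone so that they no longer act on estrogen receptors, and mice without it are known for reduced cumulus expansion and ovulation. PAPS is made from sulfate and ATP by the bifunctional enzymes Papss1 and Papss2, and sulfatases such as Sts take sulfate off again. Granulosa cells are the main site of estradiol synthesis in the ovary.

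Sult1e1 lies on the minus strand of chromosome 5, 87575969 to 87591594 (GRCm38, GENCODE M21), in 8 exons. Sult5a1, a cytosolic sulfotransferase, lies on the minus strand of chromosome 8, 123140192 to 123158315, with up to 7 exons per transcript. The stretches just upstream of both genes are shown because these 2 members did not overlap between genotypes at 3 months. Both come from RefSeq on GRCm38.p6, where 5 of the 7 members had a promoter entry. The first is chr5:87591612-87591861 and the second chr8:123158316-123158530, both written 5′ to 3′ on the minus strand and both upstream of every transcript of the gene in GENCODE M21. Capitals mark the motif matches described after the sequences.
Sult1e1: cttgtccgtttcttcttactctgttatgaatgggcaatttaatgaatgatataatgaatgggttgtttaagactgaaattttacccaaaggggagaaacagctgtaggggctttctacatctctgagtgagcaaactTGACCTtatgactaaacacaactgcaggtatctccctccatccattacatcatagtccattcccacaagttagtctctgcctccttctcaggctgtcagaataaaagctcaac
Sult5a1: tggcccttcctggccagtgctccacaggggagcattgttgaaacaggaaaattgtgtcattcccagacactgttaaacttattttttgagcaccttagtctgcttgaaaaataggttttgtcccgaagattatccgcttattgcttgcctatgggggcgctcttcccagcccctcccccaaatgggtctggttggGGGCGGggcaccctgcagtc
Motifs were searched on both strands. The Sult1e1 stretch of 250 bases held 1 nuclear receptor half-site, AGGTCA, on the strand opposite to the gene and 113 bases upstream of the RefSeq start. These letters occurred in 14.0% of 32851 RefSeq promoter windows of that length. The Sult5a1 stretch of 215 bases held 1 GC box, GGGCGG, on the gene's strand and 55 bases upstream of the RefSeq start, and 27.7% of windows of that length held it. AGGTCA was not among the letters of the Sult5a1 stretch nor GGGCGG among those of the Sult1e1 stretch, against 12.3% and 32.7% of windows. The TATA box TATAAA, the cAMP response element half-site TGACG and the CCAAT box CCAAT were not among the letters of either. They occurred in 12.4%, 17.8% and 33.8% of windows of 250 bases and in 9.75%, 14.4% and 30.4% of windows of 215 bases. G and C made up 40.8% of the Sult1e1 stretch and 52.1% of the Sult5a1 stretch, against window medians of 52.4% and 51.6%. A match is a string of letters, and binding was not measured.

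Levels are in FPKM, fragments scaled to transcript length and to the library's mapped fragments, and so are per length. Between 9335 and 10861 genes reached 1 FPKM in a library. Clpp, the targeted gene, lay between 88.2 and 146 FPKM in the 6 WT libraries and between 0.769 and 6.63 in the 6 KO libraries. At least 8 of 10 granulosa and cumulus markers reached 1 FPKM in every library, and they summed to 2804 to 6885 FPKM. The library numbered 3 in each group was high in theca and stromal markers and in the blood and leukocyte list. Theca and stromal markers summed to 163 FPKM in 3-month WT library 3, 1289 in 3-month KO, 133 in 6-month WT and 1660 in 6-month KO, against 0.443 to 78.3 in the other 8 libraries. Blood and leukocyte markers summed to 729 to 1375 FPKM in those 4 libraries and to 0.472 to 45.6 in the other 8. Other lists took another order. Surface epithelium markers summed to 33.2 FPKM in 3-month WT library 3, the lowest of its group, and to 92.6 and 61.2 in 6-month WT libraries 1 and 3. Endothelial and oocyte sums in 3-month WT library 3, 13.1 and 4.65 FPKM, lay below those of 3-month KO library 1, 22.0 and 5.45. The part of other cells in each result was not tested beyond the values printed with it. In bulk samples, fewer cells of a type and less RNA per cell cannot be told apart.

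Sult1e1 reached 1 FPKM in 3-month WT libraries and in no others. WT libraries 1, 2 and 3 of that age held 16.7, 16.3 and 1.22 FPKM (mean 11.4 ± 8.83, SD, n = 3), and all KO libraries of that age are listed at 0. At 6 months the WT libraries held 0, 0.153 and 0.369 FPKM (0.174 ± 0.185, SD, n = 3) and the KO libraries 0.443, 0 and 0.0705 (0.171 ± 0.238, SD, n = 3). Libraries 1 and 2 of 3-month WT were high and library 3 far lower, yet library 3 still lay above the remaining 9. Groups did not overlap between genotypes at 3 months or between ages in WT, and they overlapped at 6 months and between ages in KO. On the log2(FPKM + 1) scale, which understates changes of low genes, KO differed from WT by -3.14 (SE 0.64) at 3 months and by -0.01 (SE 0.64) at 6 months. Here and for the genes below, the SE pools the spread of all 4 groups and is not that of the 2 groups compared. For Sult1e1 that spread came mostly from 3-month WT. The difference of 6 from 3 months was -2.92 (SE 0.64) in WT and 0.21 (SE 0.64) in KO. The 3-month WT libraries enter both large differences, and no fold is given against a group listed at 0. With 3-month WT libraries 1 and 2 left out, an alternative chosen after seeing the data, Sult1e1 missed the filter on low values and had no fitted difference.

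The 2 libraries high in Sult1e1 also differed from library 3 in markers. Granulosa and cumulus markers summed to 4067 and 5215 FPKM in them and to 6692 in library 3, and 9 and 8 of the 10 markers reached 1 FPKM against 10. Most of each sum was Inha, at 3382, 4943 and 5791 FPKM in libraries 1, 2 and 3. Foxl2 stood at 0.582 and 0.695 FPKM in libraries 1 and 2, against 6.54 in library 3 and 2.82 or above in every library of the other groups. Slc38a3 stood at 0.0327 FPKM in library 2. These genes were named because they are the markers under 1 FPKM in libraries 1 and 2. Not every marker was lower than in library 3. Amh and Amhr2 stood at 50.8 and 65.95 FPKM in library 2, against 27.1 and 35.98 in library 3. The rest of the list was lower in library 2 than in library 3. In library 1 every marker was lower than in library 3, with Amh at 3.70 and Amhr2 at 28.5 FPKM. Surface epithelium markers summed to 44.6 and 249 FPKM in libraries 1 and 2 and to 33.2 in library 3, with 4, 4 and 1 of the 6 genes at 0. The part of these differences in the Sult1e1 level was not tested.

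**Figure D1:**
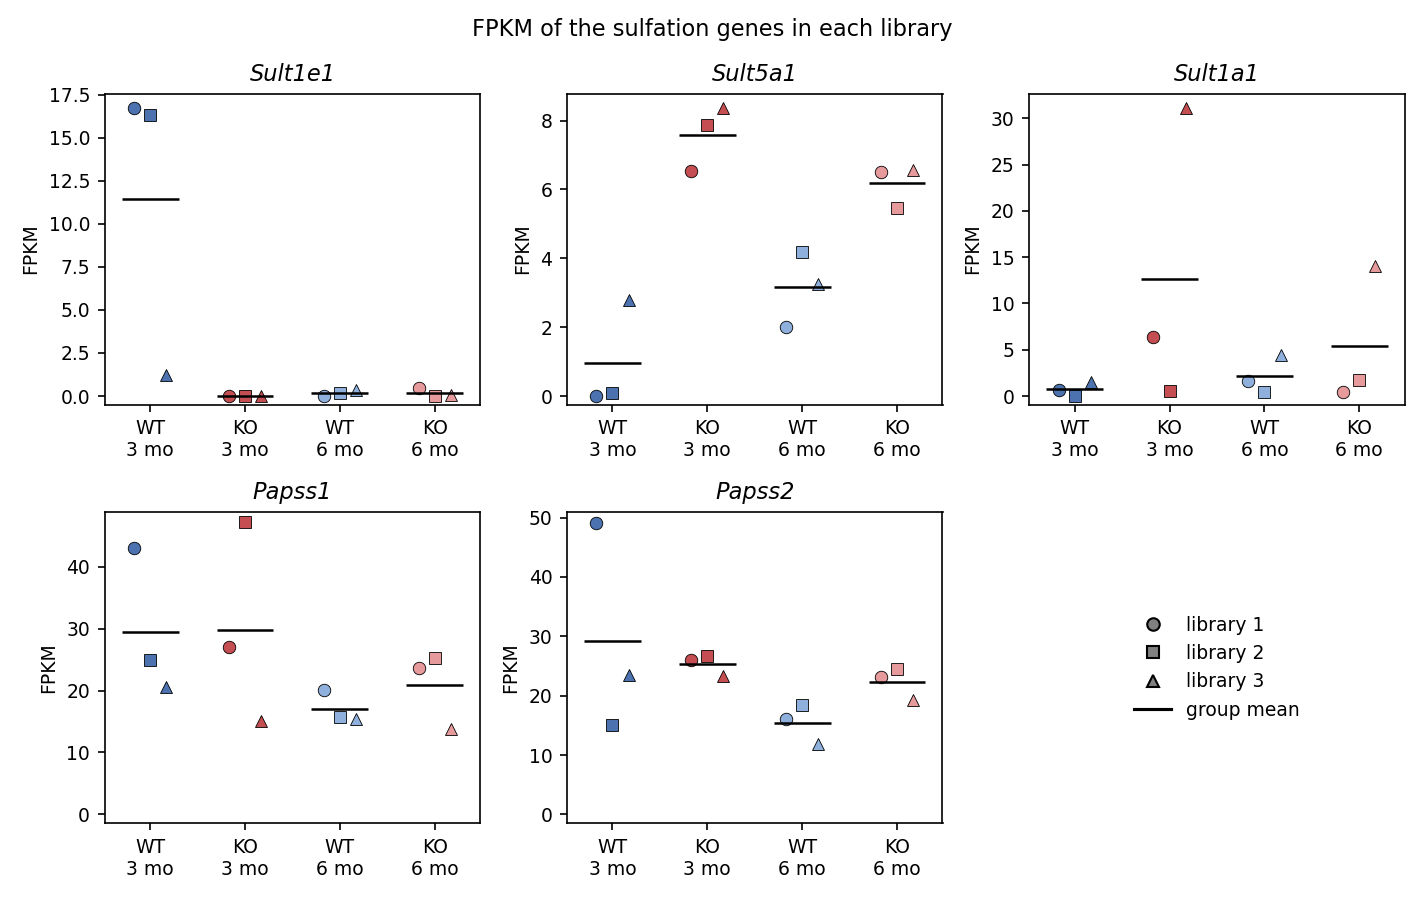
FPKM (vertical axes) of 5 sulfation genes in each library by group (horizontal axes), with symbols for the library number and a bar for the group mean. The top Sult1e1 values, 16.7 and 16.3 FPKM, belong to 2 WT libraries of 3 months and no other value exceeds 1.22, while Sult5a1 lies at 5.47 or above in the 6 KO libraries and at 4.19 or below in the 6 WT libraries.

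Sult5a1 was higher in each of the 6 KO libraries than in any of the 6 WT libraries. At 3 months the WT libraries held 0, 0.0778 and 2.78 FPKM (0.951 ± 1.58, SD, n = 3), against 6.54, 7.87 and 8.37 for KO (7.59 ± 0.947, SD, n = 3). At 6 months the WT libraries held 2.01, 4.19 and 3.26 FPKM (3.16 ± 1.09, SD, n = 3), against 6.51, 5.47 and 6.56 for KO (6.18 ± 0.614, SD, n = 3). The lowest values were those of 3-month WT libraries 1 and 2, the same libraries in which Sult1e1 was high. In log2(FPKM + 1), KO differed from WT by 2.42 (SE 0.46) at 3 months and by 0.82 (SE 0.46) at 6 months, and the groups did not overlap at either age. The difference of 6 from 3 months was 1.34 (SE 0.46) in WT and -0.26 (SE 0.46) in KO, with overlapping groups in both. The interaction, the genotype difference at 6 months less that at 3 months, was -1.60 (SE 0.65) for Sult5a1 and 3.13 (SE 0.90) for Sult1e1.

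The size of the Sult5a1 difference at 3 months depended on the WT libraries. It was 1.18 without 3-month WT libraries 1 and 2, and the difference between ages in WT was then 0.10. Both values rest on library 3 as the only WT library left at that age. Without 3-month WT library 3, high in theca and stromal markers, the genotype difference at 3 months was 3.04 (SE 0.34). Without all 4 libraries numbered 3, also chosen after seeing the data, it was 2.98 (SE 0.37). Both of these settings leave 3-month WT libraries 1 and 2, the lowest in Sult5a1, as the WT group of that age. At 6 months the difference was 0.82 (SE 0.37) without the 4 libraries numbered 3. In 3-month KO library 2, where theca and stromal markers summed to 0.443 FPKM and blood and leukocyte markers to 0.472 with 7 of 9 at 0, Sult5a1 stood at 7.87 FPKM. Library 3 was the highest in Sult5a1 in 3-month WT, 3-month KO and 6-month KO, at 2.78, 8.37 and 6.56 FPKM. In 6-month WT it was not, at 3.26 FPKM. The part of other cells in the Sult5a1 level was not tested.

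**Figure D2:**
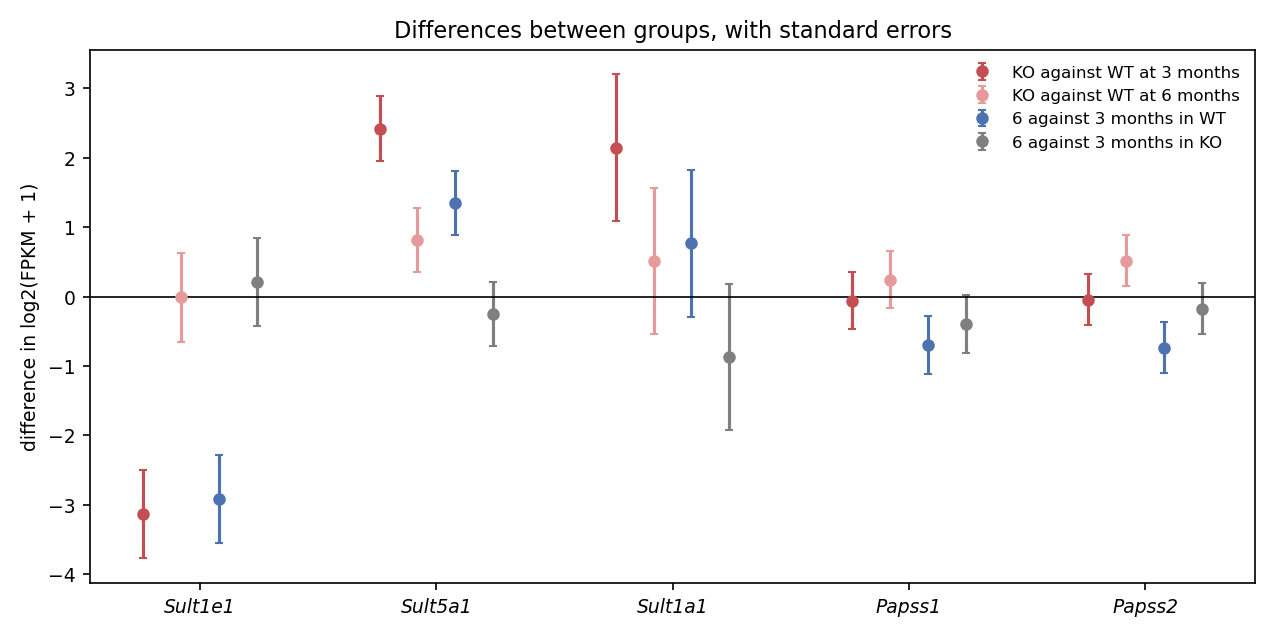
Differences in log2(FPKM + 1) (vertical axis) for 5 sulfation genes (horizontal axis) in 4 comparisons of groups. Whiskers show the standard error, pooled over the 4 groups. Sult1e1 stands at -3.14 in KO against WT at 3 months and at -2.92 in 6 against 3 months in WT, and Sult5a1 at 2.42 and 0.82 in KO against WT at 3 and 6 months.

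Sult1a1, the phenol sulfotransferase that acts on small phenols, varied more within KO than between the genotypes. It lies on the minus strand of chromosome 7, 126672865 to 126676432, and shares up to 61 exonic bases with Sgf29 on the other strand, where reads of the 2 genes cannot be told apart because the library kit does not mark strand. At 3 months the WT libraries held 0.635, 0 and 1.51 FPKM (0.715 ± 0.758, SD, n = 3), against 6.39, 0.499 and 31.1 for KO (12.7 ± 16.2, SD, n = 3). At 6 months the WT libraries held 1.64, 0.415 and 4.41 FPKM (2.15 ± 2.05, SD, n = 3), against 0.400, 1.77 and 14.1 for KO (5.42 ± 7.54, SD, n = 3). Groups overlapped at both ages, and library 3 was the highest of its group in each of the 4 groups. In log2(FPKM + 1), KO differed from WT by 2.15 (SE 1.06) at 3 months and by 0.51 (SE 1.06) at 6 months. Without the 4 libraries numbered 3 these differences were 1.38 (SE 0.74) and 0.03 (SE 0.74).

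Theca and stromal markers and luteal markers were highest in the libraries with the most Sult1a1, but the orders of the 2 measures differed below that. The top levels of Sult1a1, 31.1 and 14.1 FPKM, were in the KO libraries with theca and stromal sums of 1289 and 1660 FPKM, where 8 and 9 of the 10 genes reached 1 FPKM. Luteal markers, genes of steroid synthesis and its control, summed to 9097 and 14242 FPKM in them against 143 to 3999 in the other 10. In the KO libraries with the lowest theca and stromal sums, 0.443 and 2.91 FPKM, Sult1a1 stood at 0.499 and 0.400 FPKM. In 3-month KO library 1, Sult1a1 stood at 6.39 FPKM with a theca and stromal sum of 78.3, while 3-month and 6-month WT libraries 3 had less Sult1a1, 1.51 and 4.41 FPKM, with larger sums of 163 and 133. Small RNA entries took up 32.0% and 37.5% of the summed FPKM in the 2 top libraries, the highest shares of the 12. The next was 25.7%, in 3-month WT library 1, where Sult1a1 stood at 0.635 FPKM, and the other 9 had 0.263% to 6.82%. The part of these cells and of the small RNA share in the Sult1a1 level was not tested.

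**Figure D3:**
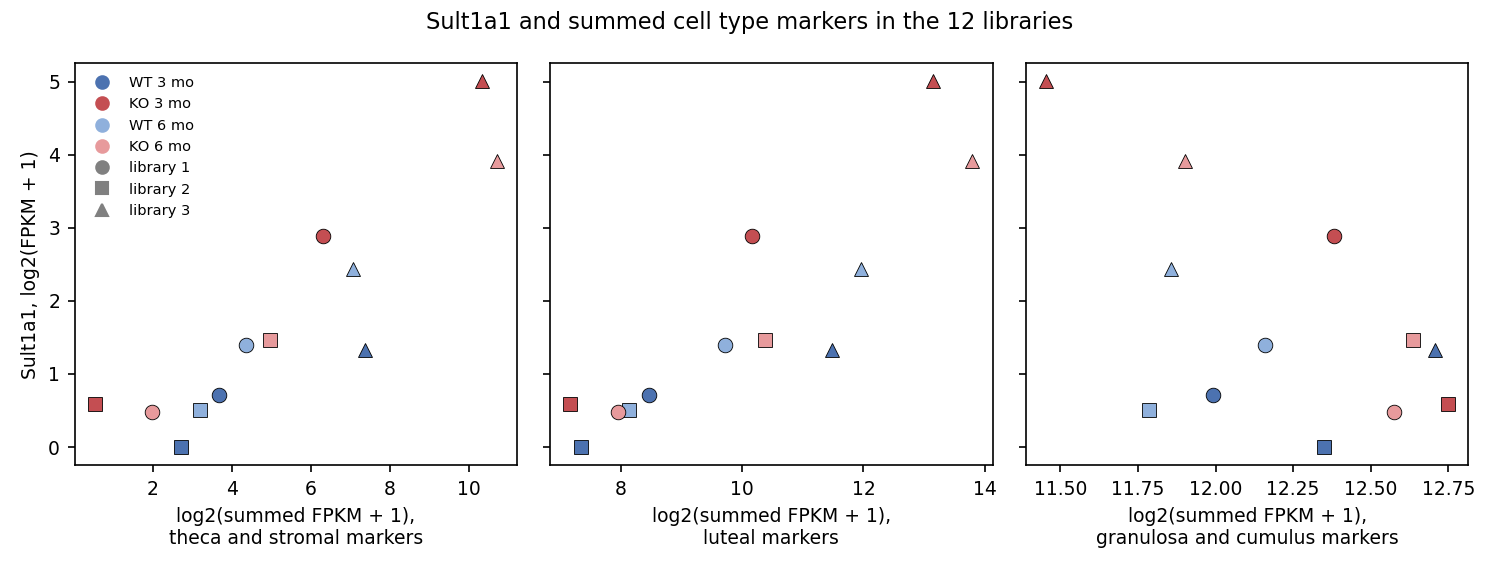
Sult1a1 (vertical axis, log2(FPKM + 1)) against the summed level of theca and stromal, luteal, and granulosa and cumulus markers (horizontal axes, log2(summed FPKM + 1)) in the 12 libraries, coloured by group with symbols for the library number. The highest Sult1a1 libraries, at 31.1 and 14.1 FPKM, have the highest theca and stromal sums, 1289 and 1660 FPKM.

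Sult4a1, a member of the family known from brain, was listed at 0 in all 12 libraries. A list of 21 cytosolic sulfotransferase genes had 18 rows in the table, of which 9 were at 0 in every library and 13 stayed under 1 FPKM throughout. After Sult1e1, Sult5a1 and Sult1a1, the highest means belonged to Sult6b1, at most 1.83 FPKM in 6-month KO library 3, Sult2b1, at most 1.73 in 3-month KO library 1, and Sult2a4, seen in 6-month KO library 3 alone at 0.988.

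Libraries differed in which family member led. Sult1e1 held 96.3% and 96.9% of the summed cytosolic sulfotransferase FPKM in 3-month WT libraries 1 and 2, 21.8% in library 3 and at most 5.73% in the other 9 libraries. Sult5a1 was the leading member in 7 libraries, with 44.6% to 93.6% of the sum. Sult1a1 led in library 3 of 3-month KO, 6-month WT and 6-month KO, with 53.7% to 75.3%. The summed level averaged 13.3 ± 6.63 FPKM (SD, n = 3) in 3-month WT, 21.5 ± 17.5 in 3-month KO, 5.94 ± 2.05 in 6-month WT and 12.9 ± 9.28 in 6-month KO, with overlapping genotypes at both ages. By mean level per length the order in 3-month WT was Sult1e1, Sult5a1, Sult1a1 and Sult4a1, and the libraries of the first 3 overlapped. In 3-month KO it was Sult1a1 and Sult5a1, which overlapped, with the other two at 0. At 6 months it was Sult5a1, Sult1a1, Sult1e1 and Sult4a1 in both genotypes. Sult5a1 and Sult1a1 overlapped in both genotypes at that age, Sult1e1 overlapped Sult4a1 in both through libraries at 0, and Sult1a1 overlapped Sult1e1 in KO but not in WT.

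**Figure D4:**
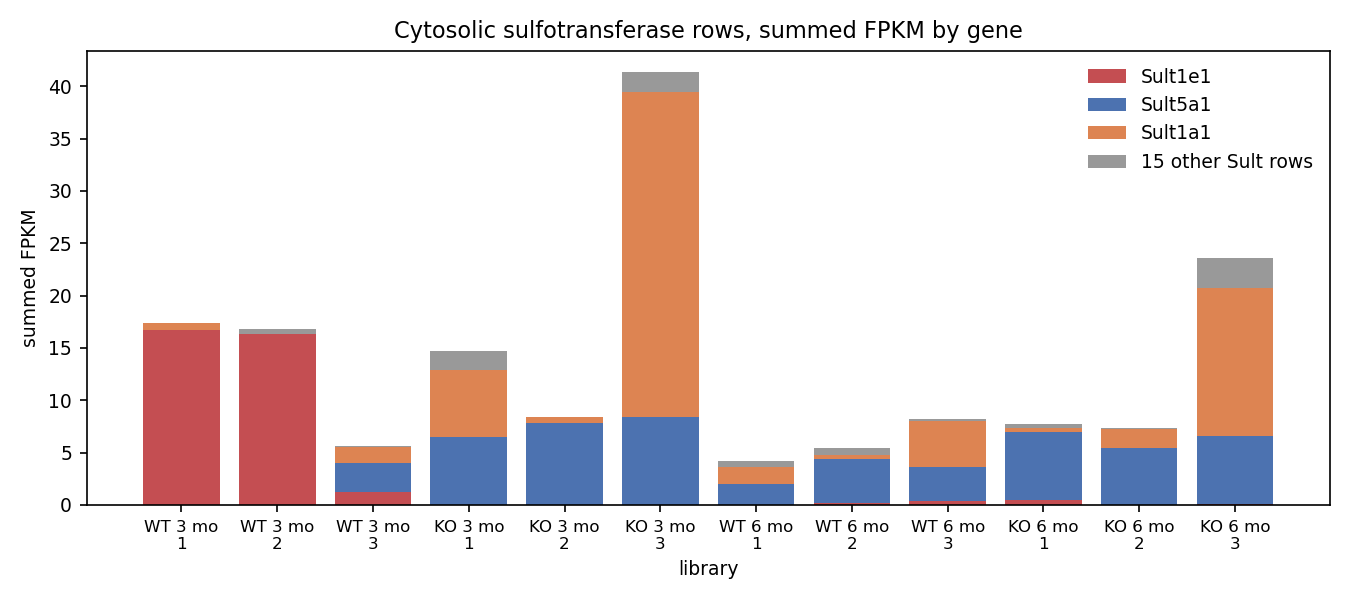
Summed FPKM (vertical axis) of the cytosolic sulfotransferase rows in each library (horizontal axis), split into Sult1e1, Sult5a1, Sult1a1 and the 15 other rows. Sult1e1 makes up 96.3% and 96.9% of the bar in 3-month WT libraries 1 and 2, Sult5a1 leads in 7 libraries, and Sult1a1 leads in 3.

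Both PAPS synthases were present in every library. Papss1 lies on the plus strand of chromosome 3, 131564768 to 131643671, and Papss2 on the plus strand of chromosome 19, 32595790 to 32667187. Papss1 measured 43.0, 24.9 and 20.6 FPKM in the WT libraries of 3 months (29.5 ± 11.9, SD, n = 3) and 27.0, 47.2 and 15.1 in the KO libraries (29.8 ± 16.2, SD, n = 3). At 6 months it measured 20.0, 15.8 and 15.4 FPKM in the WT libraries (17.1 ± 2.57, SD, n = 3) and 23.7, 25.3 and 13.8 in the KO libraries (20.9 ± 6.22, SD, n = 3). The genotypes overlapped at both ages, and every WT library of 6 months lay below every WT library of 3 months. In log2(FPKM + 1) the difference of 6 from 3 months was -0.70 (SE 0.41) in WT and -0.39 (SE 0.41) in KO.

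Papss2 measured 49.1, 15.1 and 23.5 FPKM in the WT libraries of 3 months (29.3 ± 17.7, SD, n = 3) and 25.9, 26.6 and 23.3 in the KO libraries (25.3 ± 1.79, SD, n = 3). At 6 months it measured 16.05, 18.4 and 11.9 FPKM in the WT libraries (15.5 ± 3.26, SD, n = 3) and 23.2, 24.5 and 19.2 in the KO libraries (22.3 ± 2.74, SD, n = 3). Every KO library lay above every WT library at 6 months, while at 3 months the highest value was a WT library and the groups overlapped. In log2(FPKM + 1), KO differed from WT by -0.05 (SE 0.37) at 3 months and 0.52 (SE 0.37) at 6 months for Papss2, and by -0.06 (SE 0.41) and 0.24 (SE 0.41) for Papss1. At 3 months the sign turned in 6 of 18 alternative settings for Papss1 and in 5 of 18 for Papss2, so no direction is given there. The ratio of Papss1 to Papss2 in a library ran from 0.651 to 1.77, with means of 1.13 in 3-month WT, 1.15 in 3-month KO, 1.13 in 6-month WT and 0.923 in 6-month KO. The 2 synthases together measured 27.3 to 92.1 FPKM per library.

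The limma fit tested 11196 genes that reached 1 FPKM in at least 3 libraries, and 5 of the 7 members were among them, Sult1e1 only through the 3-month WT libraries in which it is high. At a Benjamini-Hochberg adjusted p under 0.05, 0 of the 5 were called in each of the 5 comparisons. Of all genes, 0.00893% were called for KO against WT at 3 months, 0.0268% at 6 months, 0.00893% between ages in WT, 0.0179% between ages in KO and 0.00893% for the interaction. At an unadjusted p under 0.05, 2 of the 5, Sult1e1 and Sult5a1, passed for KO against WT at 3 months (6.8% of all genes), between ages in WT (7.44%) and for the interaction (2% of all genes). At that level 0 of the 5 passed for KO against WT at 6 months (1.22%) and between ages in KO (6.48%). Groups did not overlap for 2 of the 5 at 3 months (10.2% of all genes), 2 at 6 months (6.8%), 2 between ages in WT (15.7%) and 0 between ages in KO (12.8%). For KO against WT at 3 months the calls over all genes went from 1 of 11196 to 9 of 11124 without 3-month WT library 3 and to 85 of 10349 without the 4 libraries numbered 3, with 1 of the members, Sult5a1, among them both times. The members were chosen with these contrasts known, so nothing is read from the counts.

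The genes most like Sult1e1 over the 12 libraries, by Pearson's r of log2(FPKM + 1), were Osgin2, Eif4ebp1, Clic1, Actr3 and Chic2. Eif4ebp1 encodes a repressor of translation initiation, Clic1 a chloride intracellular channel protein and Actr3 a subunit of the actin-nucleating ARP complex. Pearson's r ran from 0.934 to 0.968 and Spearman's rho from 0.399 to 0.718. Without 3-month WT libraries 1 and 2, Pearson's r was 0.312 to 0.619, so the likeness rested on those 2 libraries. Osgin2, for example, reached 140 and 192 FPKM in them and at 11.5 to 26.8 in the other 10. The genes most like Sult5a1 were Phf7, Uri1, Pfkfb1, Bad and an entry whose symbol had been turned into a date. Pfkfb1 encodes an enzyme that sets the level of fructose bisphosphate regulators of glycolysis, and Bad a pro-apoptotic member of the BCL2 family. Here Pearson's r ran from 0.875 to 0.901, Spearman's rho from 0.601 to 0.874, and Pearson's r without the same 2 libraries from 0.381 to 0.774. These genes were picked as the highest of all tested, over libraries that differ in depth and cell content, so the values describe and test nothing.

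Genes that supply PAPS were followed through a list of 12 for sulfate uptake, PAPS synthesis and transport and removal of the by-product PAP. Of these, 8 were tested, the 2 synthases included, and 0 were called in any comparison. Slc35b2, which carries PAPS into the Golgi, had the highest mean outside the members, at 33.1 ± 13.0 FPKM (SD, n = 3) in 3-month WT, 53.1 ± 35.7 in 3-month KO, 33.5 ± 7.20 in 6-month WT and 41.1 ± 21.3 in 6-month KO. The second PAPS carrier, Slc35b3, averaged 13.8, 14.2, 10.7 and 15.9 FPKM in the same order, and Bpnt1, which degrades PAP, 10.9, 13.3, 8.61 and 8.77. The libraries of these 3 genes overlapped between genotypes at both ages. In KO against WT, 5 of the 8 lay above 0 at 3 months (51.2% of all genes did) and 7 of the 8 at 6 months (51.5%). The median difference was 0.13 at 3 months and 0.19 at 6 months, against 0.01 over all genes at each age.

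Sulfatases and their activators had 10 tested genes of 15, and 0 were called in any comparison. Their median difference of KO from WT was 0.25 at 3 months and 0.27 at 6 months, against 0.01 over all genes at each age. At each age 7 of the 10 lay above 0, against 51.2% of all genes at 3 months and 51.5% at 6 months. Sulf2, which trims heparan sulfate outside the cell, was the most abundant, at 47.8 ± 10.2 FPKM (SD, n = 3) in 3-month WT, 55.1 ± 17.0 in 3-month KO, 66.6 ± 9.12 in 6-month WT and 66.3 ± 30.2 in 6-month KO. Sumf1, the enzyme that activates sulfatases, averaged 7.83, 11.1, 5.53 and 10.04 FPKM in the same order, and its relative Sumf2 13.9, 19.2, 12.3 and 16.9. The 6-month KO libraries held 7.84, 5.95 and 16.3 FPKM of Sumf1. Genotypes overlapped at both ages for Sumf1 and for Sumf2.

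Golgi sulfotransferases, which modify proteoglycans and proteins, had 13 tested genes of 36 and 0 calls, with medians of -0.09 at 3 months and -0.07 at 6 months. Hs3st1, a heparan sulfate sulfotransferase, measured 157, 153 and 32.5 FPKM in 3-month WT, 85.1, 51.2 and 18.8 in 3-month KO, 28.3, 23.2 and 22.1 in 6-month WT and 33.5, 73.8 and 18.1 in 6-month KO. Its highest libraries were 3-month WT 1 and 2, as for Sult1e1, and the WT libraries of 6 months all lay below those of 3 months (difference -1.88, SE 0.68, limma adjusted p = 0.664). Chst12, a chondroitin sulfotransferase, measured 0.427, 0.837 and 3.32 FPKM in 3-month WT and 5.27, 4.36 and 6.29 in 3-month KO, without overlap (difference 1.48, SE 0.42, limma adjusted p = 0.664). At 6 months Chst12 overlapped between the genotypes, with a difference of -0.26 (SE 0.42). Chst15, which acts on chondroitin sulfate, averaged 1.99 FPKM in 3-month WT and 0.308 in 3-month KO, with overlapping groups. Tpst1, a protein-tyrosine sulfotransferase, averaged 42.1, 38.6, 26.4 and 29.0 FPKM in 3-month WT, 3-month KO, 6-month WT and 6-month KO, and the carbohydrate sulfotransferase Chst8 32.9, 44.6, 28.2 and 26.5.

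Genes that make, convert or sense estrogen, the substrate of Sult1e1, had 12 tested members of 16 and 0 calls. Their medians were -0.18 at 3 months and -0.18 at 6 months, against 0.01 over all genes at each age. Above 0 lay 2 and 4 of the 12, against 51.2% and 51.5% of all genes, and nothing is read from these counts. Hsd17b1, which reduces estrone to estradiol, averaged 874 ± 212 FPKM (SD, n = 3) in 3-month WT, 790 ± 559 in 3-month KO, 787 ± 167 in 6-month WT and 701 ± 466 in 6-month KO. Its lowest values, 170 and 196 FPKM, were those of KO libraries numbered 3, the highest in theca and stromal markers, and the other 10 ran from 623 to 1256. The mitochondrial dehydrogenase gene Hsd17b10 averaged 608, 607, 525 and 477 FPKM in 3-month WT, 3-month KO, 6-month WT and 6-month KO, and Hsd17b12, which also elongates fatty acids, 102, 65.9, 48.9 and 55.9. The estrogen receptor gene Esr1 measured 3.46, 4.92 and 0.925 FPKM in 3-month WT and 0.218, 0.794 and 2.05 in 3-month KO, with overlapping groups. Hsd17b4, a peroxisomal dehydrogenase gene, averaged 20.1 ± 2.61 FPKM (SD, n = 3) in 6-month WT and 32.6 ± 10.8 in 6-month KO without overlap (difference 0.63, SE 0.34, limma adjusted p = 1.00).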

How the data were processed

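Libraries of 100 cumulus cells were prepared by Smart-Seq2 and Nextera XT and read as 75 bp pairs, per the labels' protocols. The authors' table gives FPKM per gene, as the labels name it. The submitters' processing notes list cutadapt, FastQC, Bowtie2 2.1.0, TopHat2 2.0.10, SAMtools 0.1.18, Cufflinks 1.2.1 and GRCm38/mm10; the gene annotation was not named there. Counts per gene were not analysed here. From the spacing of values under 0.2 FPKM, relative depth spanned 0.64 to 1.0 (all 66 pairs of libraries within 0.1 log2), and values near 0 rest on few reads. No pair was identical.

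Genes with at least 1 FPKM in at least 3 libraries were fitted as log2(FPKM + 1) with limma 3.58.1 in R 4.3.3, as 4 group means over 12 libraries (eBayes with trend, 2-sided, Benjamini-Hochberg over 11196 genes, threshold 0.05), and the script was tested on simulated data. Python 3.11.15 (pandas 2.3.3, numpy 2.4.6, matplotlib 3.10.9) served for levels, sequences and plots. Members and lists were chosen with earlier results of these data known. Beside members and Clpp, the text names the 3 genes of highest mean and the 2 of smallest unadjusted p (KO against WT) per pathway list, and the 5 genes most like Sult1e1 and Sult5a1; a gene that this rule names is not reported here. Alternatives were pseudocounts, filters, scalings, fewer groups, a replicate block and libraries left out.

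Libraries carry numbers 1 to 3 without a stated meaning. Same-numbered deviations from group means had correlations of 0.16, 0.37 and 0.47 between genotypes at 6 months and 0.11, 0.39 and 0.65 between ages in KO. All were over 0.1, which the rule used here takes as a sign of pairs, from the data alone. Library 1 nonetheless matched library 2 of the other group best in each comparison. Correlations were 0.095, -0.019 and 0.21 between genotypes at 3 months and 0.032, 0.03 and 0.28 between ages in WT. The main fit did not pair libraries in any comparison, and pairing entered only as the replicate block among the alternatives.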

Additional observations from a re-analysis of the deposited data

How the results depend on the processing

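As log2 differences of KO from WT, Sult5a1 ran from 1.18 to 4.37 in 18 alternative settings at 3 months. It ran from 0.606 to 1.00 in 17 at 6 months. Its sign was kept, but with no overlap of genotypes at either age only a rescaling of libraries could have turned it. Sult1e1 ran from -6.16 to -3.08 at 3 months in the 12 settings that tested it, where KO libraries listed at 0 fixed its sign in advance. At 6 months its sign turned in 5 of 13 (-0.17 to 0.162). At 3 months a pseudocount of 0.1 gave -6.16 for Sult1e1 and 4.37 for Sult5a1, and a pseudocount of 0.5 gave 3.04 for Sult5a1. A smaller pseudocount widens differences of low values by construction. Without 3-month WT libraries 1 and 2, which leaves library 3 alone in that group, the Sult5a1 difference was 1.18, for which the cause was not tested. Leaving out 1 library at a time gave 2.08 to 3.04 for Sult5a1 at 3 months and 0 to 1 members called, the 1 being Sult5a1 without 3-month WT library 3, where 9 of 11124 genes were called against 1 of 11196 with all libraries. Without the 4 libraries numbered 3, Sult5a1 was 1 of 85 genes called of 10349, so calls over the whole table rose with it. In the other settings and comparisons that were run, 0 members were called. The replicate block over 12 libraries left the 3-month differences at -3.14 for Sult1e1 and 2.42 for Sult5a1. The block could not change them, because each library number occurs once in every group, and it changed no member's call. Sult1e1 had no value under the filter at 5 FPKM or wherever a 3-month WT library was left out, fits of other groups alone included. Its levels at 6 months are at the limit of this depth, and a difference between genotypes was not detectable there.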

Other observations

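In the pathway lists 2 genes, singled out after their values were seen, were higher at 6 than at 3 months without overlap in both genotypes, which are separate sets of mice. They were 2 of 46 list genes tested, or 4.35%, against 1.75% of all genes tested. Impad1 encodes a Golgi phosphatase that removes the sulfation by-product PAP. Its 3-month WT libraries held 6.80, 3.01 and 6.97 FPKM and its 6-month WT libraries 7.39, 7.37 and 12.3. For KO, Impad1 measured 4.51, 3.53 and 4.07 FPKM at 3 months and 6.59, 7.59 and 9.28 at 6 months. Arsg encodes a lysosomal sulfatase. Its 3-month WT libraries held 0.159, 0 and 0.957 FPKM and its 6-month WT libraries 1.25, 1.88 and 1.79. For KO, Arsg measured 0, 1.02 and 1.48 FPKM at 3 months and 2.16, 2.36 and 2.15 at 6 months. Neither gene passed an adjusted p of 0.05 in limma in either genotype.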
